A study of Homo sapiens with 6 samples.

Results

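*KITLG* encodes stem cell factor, the ligand of the receptor tyrosine kinase KIT. The 10 genes described here are *KITLG*, *KIT* and the other ligands and receptors of the type III receptor kinase class that were listed for this account (*PDGFA*, *PDGFB*, *PDGFC*, *PDGFRA*, *PDGFRB*, *CSF1*, *FLT3* and *FLT3LG*), taken by symbol from the 17471 genes of the expression table. All 10 had a row. The genes were chosen by their role with the measured TPM difference between shPAX2 and shEV already known, so their levels are given as a description and carry no test.

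The libraries were RNA-seq of AN3CA, an established human endometrial cancer line derived from a lymph node metastasis, 3 per group. Control cells (shEV, genotype WT in the labels) had been transduced with the empty hairpin lentiviral vector, and knockdown cells (shPAX2) with that vector carrying 1 hairpin sequence against *PAX2*, a developmental transcription factor gene. Both groups had been selected with puromycin. The text of the study calls the AN3CA control scrambled in other assays. No second hairpin was included, and nothing in the sources used here says whether the replicates came from separate cultures, so p-values measure the spread between these libraries only.

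In this receptor class, a dimeric ligand draws a pair of receptors together, the paired kinase domains phosphorylate each other, and the phosphotyrosines recruit adaptors of the RAS, PI3K, phospholipase C and SRC family pathways. Stem cell factor and KIT act in germ cells, melanocytes, mast cells and blood progenitors. The PDGF ligands act mostly on mesenchymal cells through PDGFRA and PDGFRB, CSF1 supports macrophages through CSF1R, and FLT3LG supports dendritic and lymphoid progenitors through FLT3. In the uterus, PDGF receptors are known chiefly from stroma and CSF1 from the steroid-regulated epithelium.

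RefSeq promoter windows (GRCh38.p14) were at hand for 7 of the 10 genes, 12 windows in all. *PDGFB*, *PDGFC* and *CSF1* had no entry. The 250 bases before the start site are shown for *KITLG* and *FLT3LG*, which differed between the groups, and for *PDGFRB*, the receptor with the highest level. *KITLG* is on the minus strand at chr12:88580472-88580721, *FLT3LG* (the first of its start sites) on the plus strand at chr19:49473965-49474214, and *PDGFRB* on the minus strand at chr5:150155846-150156095. Capitals mark GGGCGG, the GC box bound by SP1, and TATAAA, on either strand.
KITLG: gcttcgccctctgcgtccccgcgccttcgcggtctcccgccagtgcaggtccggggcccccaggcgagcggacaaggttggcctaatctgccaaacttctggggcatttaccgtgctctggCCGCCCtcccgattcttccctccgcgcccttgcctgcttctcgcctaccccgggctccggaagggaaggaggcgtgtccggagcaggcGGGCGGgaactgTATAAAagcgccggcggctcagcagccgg
FLT3LG: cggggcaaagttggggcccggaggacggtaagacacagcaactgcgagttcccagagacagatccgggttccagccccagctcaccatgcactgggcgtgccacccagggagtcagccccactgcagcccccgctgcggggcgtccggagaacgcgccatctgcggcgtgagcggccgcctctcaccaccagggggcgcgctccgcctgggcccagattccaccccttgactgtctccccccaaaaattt
PDGFRB: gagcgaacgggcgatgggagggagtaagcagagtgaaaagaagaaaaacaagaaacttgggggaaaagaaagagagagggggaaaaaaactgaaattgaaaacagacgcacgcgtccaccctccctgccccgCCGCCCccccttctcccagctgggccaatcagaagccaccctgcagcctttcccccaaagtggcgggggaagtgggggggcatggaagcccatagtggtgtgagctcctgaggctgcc
The *KITLG* window held 2 GC boxes and 1 TATAAA, which was the only TATAAA among the 12 windows. The *FLT3LG* window shown held neither, while the other *FLT3LG* window, chr19:49474336-49474585, held 3 GC boxes. The *PDGFRB* window held 1 GC box. GGGCGG was found in 9 of the 12 windows and in 42.6% of all 35116 windows of the same length, and TATAAA in 10.7% of all windows. Several of the windows with GGGCGG were start sites of 1 gene, *PDGFA*. The GC content of the 12 windows ran from 46.8% to 81.6%, against a median of 58.0% over all windows. GTCANGC, the core letters of sites bound by PAX2 and its close relatives, was in none of the 12 and in 9.0% of all windows. TGANTCA, the AP-1 letters, was in 1 of the 12 (*PDGFRA*) and in 6.57% of all windows. Both strands were searched. GTCANGC can overlap TGANTCA or GGGCGG, and TATAAA can overlap none of the others. A match describes the letters of the window only.

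The hairpin's target was lower in every shPAX2 library. Mean *PAX2* was 3.47 ± 0.665 TPM for shEV against 0.936 ± 0.224 TPM for shPAX2 (SD, n = 3 each), a log2 difference of -1.47 (SE 0.18, limma adjusted p 0.000294). TPM is a length-scaled share of the reads, set to the same total in each library. Whole reads per gene could be recovered from the TPM values. They totalled 10730909 to 18221859 in shEV and 19422615 to 29405787 in shPAX2, so every shPAX2 library was the deeper one. shPAX2 replicate 1 stood apart from its group, with a chi-square per degree of freedom of 12.5 and 15.5 against the other shPAX2 libraries and 3.20 to 5.499 between shEV libraries. The labels call the cells epithelial, yet of the 11 epithelial markers with a row, 10 were under 0.5 TPM in every library, *EPCAM* and *CDH1* among them. *KRT18* was the exception, at 10.2 to 17.5 TPM. The summed TPM of 8 fibroblast markers was 4920 to 5324 in shEV and 4391 to 4581 in shPAX2. Most of it was *VIM*, with means of 4212 TPM in shEV and 3808 TPM in shPAX2. The markers of that list did not go together. *COL1A2*, *COL3A1* and *SPARC* were at 25.0 TPM or more in every library. *COL1A1* was at 0.691 to 1.48 TPM and *FN1* at 0.131 to 0.827 TPM over all libraries. *FAP* and *THY1* were under 0.5 TPM in every library, and *DCN* and *LUM* had no row. The 4 endothelial markers summed to at most 0.111 TPM in any library, and 4 blood cell markers to 0.897 to 1.71 TPM in shEV and 1.73 to 2.48 TPM in shPAX2, most of it *CD68*. In bulk libraries, fewer cells that express a gene and less RNA per cell cannot be told apart.

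Stem cell factor transcripts were nearly lost from shPAX2. *KITLG* (chromosome 12, 88886570 to 88974628, GRCh37) measured 14.9, 13.6 and 14.5 TPM across the shEV replicates (1, 2 and 3) against 0.384, 0.395 and 0.377 TPM across the shPAX2 replicates. The highest shPAX2 library was far below the lowest shEV library, and the spread inside each group was small. The means were 14.3 ± 0.695 and 0.385 ± 0.00941 TPM (SD, n = 3 each), so that shPAX2 held 2.69% of the shEV level, a 37.15-fold difference. The values came from 436, 652 and 711 reads in shEV and 32, 29 and 20 reads in shPAX2, from the deeper libraries. On the log2(TPM + 0.5) scale, which shrinks differences of low genes, the difference was -4.06 (SE 0.11, 95% interval -4.31 to -3.82). Of the 13163 genes that could be tested, 6 lay lower on that scale. *KITLG* was chosen with this contrast known and entered the tested genes through shEV alone, so its place is a description only.

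Its receptor was close to absent in both groups. *KIT* (chromosome 4, 55523434 to 55606949) measured 0.0360, 0.0874 and 0.0856 TPM across the shEV replicates, on 1, 4 and 4 reads. All 3 shPAX2 libraries were listed at 0. Against a floor of 3 reads over the shPAX2 group, the shEV level was 4.98-fold higher, allowing for depth. The 9 shEV reads were taken as exact there, so this is not a lower limit. The floor covers counting error only, since the reads carry no molecular identifiers.

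**Figure D1:**
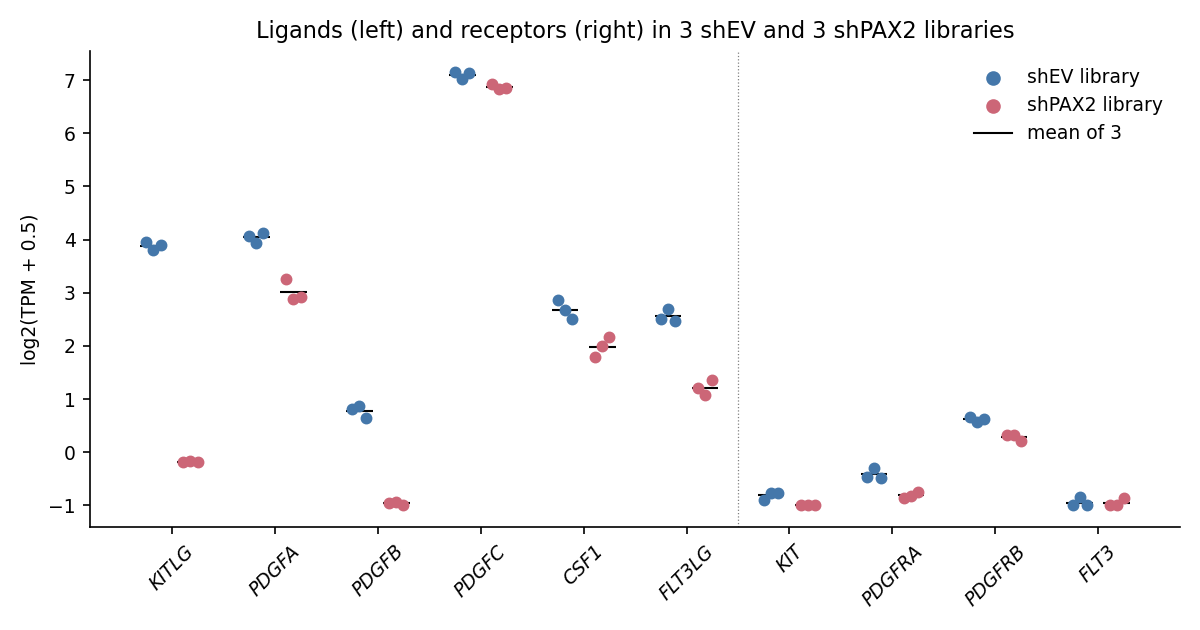
Level of each ligand (left of the dotted line) and receptor (right) as log2(TPM + 0.5), 1 point per library and a bar at the mean of 3, for shEV (blue) and shPAX2 (red). *KITLG* drops from 13.6 to 14.9 TPM to 0.377 to 0.395 TPM. *PDGFC*, the gene with the highest level, is at 113 TPM or more in every library. *FLT3* is the single gene whose groups overlap. Among all genes tested, every shPAX2 library lay below every shEV library in 39.0% and above in 15.9%.

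Among the PDGF ligands described here, the size of the difference ran against the level. *PDGFC* (chromosome 4, 157681606 to 157892951) encodes a latent ligand that proteases activate by removing its CUB domain. It was the most abundant of the 10 genes, at 141, 129 and 140 TPM in shEV and 121, 113 and 115 TPM in shPAX2. The groups did not overlap, but the shPAX2 mean was still 84.9% of the shEV mean. The log2 difference was -0.23 (SE 0.06, 95% interval -0.37 to -0.10), and -0.12 under median-of-ratios scaling, which centres the genes near 0. The median log2 difference over all genes tested was -0.10 on the TPM scale.

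*PDGFA* (chromosome 7, 536895 to 559933), the ligand of PDGFRA homodimers, was at 16.3, 14.8 and 17.0 TPM in shEV and 9.05, 6.85 and 7.05 TPM in shPAX2. Every shPAX2 library was lower than every shEV library, with replicate 1 the highest of the shPAX2 group. The shPAX2 mean was 47.8% of the shEV mean, and the log2 difference was -1.03 (SE 0.11). Under median-of-ratios scaling it was -0.92.

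*PDGFB* (chromosome 22, 39619364 to 39640987), whose product binds both PDGF receptors, was the lowest in level of the described PDGF ligands. It changed most in proportion among them. The shEV values were 1.25, 1.32 and 1.06 TPM (23, 40 and 33 reads). The shPAX2 values were 0.0190, 0.0216 and 0 TPM (1, 1 and 0 reads). Pooled over the libraries and allowing for depth, the shEV level was 79.6 times the shPAX2 level, with an exact 95% counting interval of 21.45 to 667. The log2(TPM + 0.5) difference of -1.73 (SE 0.17) is set largely by the added 0.5 and moved to -3.53 with 0.1 in its place.

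The other ligands of the class were lower as well. *FLT3LG* (chromosome 19, 49977464 to 49989488) was at 5.19, 6.01 and 5.01 TPM in shEV and 1.82, 1.61 and 2.05 TPM in shPAX2, a mean of 33.85% of the shEV level. Its log2 difference was -1.34 (SE 0.13). *CSF1* (chromosome 1, 110452864 to 110473614), the macrophage growth factor, was at 6.75, 5.89 and 5.20 TPM in shEV and 2.98, 3.49 and 3.98 TPM in shPAX2, a mean of 58.55% of the shEV level. Its log2 difference was -0.70 (SE 0.13). For both genes the groups were apart, and *CSF1* had the wider spread inside each group.

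The receptors were scarce throughout. *PDGFRB* (chromosome 5, 149493402 to 149535435) was the one receptor above 0.5 TPM, at 1.08, 0.990 and 1.05 TPM in shEV and 0.755, 0.753 and 0.664 TPM in shPAX2. These came from 33 to 54 reads per shEV library and 37 to 66 reads per shPAX2 library. The groups did not overlap, and the log2 difference was -0.33 (SE 0.15). *PDGFRA* (chromosome 4, 55095447 to 55164412) was at 0.227, 0.310 and 0.219 TPM in shEV and 0.0497, 0.0677 and 0.0935 TPM in shPAX2. That was 39 reads in all against 17, a ratio of 3.805 allowing for depth, with an exact 95% counting interval of 2.10 to 7.17. Its start lies 428 kb from that of *KIT*, on the same chromosome.

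*FLT3* (chromosome 13, 28577411 to 28674729) could not be compared. It was listed at 0 in 4 libraries, at 0.0589 TPM in shEV replicate 2 and at 0.0533 TPM in shPAX2 replicate 3. The recovered reads gave 1 read in each of these libraries. Its implied length was shorter than the annotated transcript, by a ratio of 2.01, so both may have been 2 reads. No difference was detectable at this depth.

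The order of the levels changed with the knockdown. In shEV the order was *PDGFC*, *PDGFA*, *KITLG*, *CSF1*, *FLT3LG*, *PDGFB*, *PDGFRB*, *PDGFRA*, *KIT* and *FLT3*. *PDGFA* and *KITLG*, *CSF1* and *FLT3LG*, *PDGFB* and *PDGFRB*, and *KIT* and *FLT3* had overlapping ranges there. In shPAX2 *KITLG* moved from place 3 to place 6, below *PDGFRB*, and *PDGFB* from place 6 to place 9. The ranges of the first 6 genes did not overlap with their next neighbour in shPAX2, and those of *PDGFRA*, *FLT3*, *PDGFB* and *KIT* did.

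*PDGFC* dominated the summed ligands. The summed level of the 6 ligand genes was 171 to 186 TPM in shEV and 125 to 135 TPM in shPAX2. *PDGFC* made up 75.7% to 76.7% of it in shEV and 89.4% to 90.1% in shPAX2. Without *PDGFC* the sum was 41.6 to 44.4 TPM in shEV and 12.4 to 14.3 TPM in shPAX2. The 4 receptor genes summed to 1.34 to 1.45 TPM in shEV and 0.804 to 0.821 TPM in shPAX2.

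Of the 10 genes, 7 passed the filter of 0.5 TPM in at least 3 libraries. *KITLG* and *PDGFB* passed only through shEV, so they had to differ, and *KIT*, *PDGFRA* and *FLT3* did not pass. Called genes had a limma adjusted p under 0.05 together with a log2 difference of 1 or more in size. By that rule 598 of 13163 genes, 4.54%, were called over the whole table, 1.43% higher and 3.11% lower in shPAX2. For the described genes only the place of the values is given. The log2 differences of 4 genes (*KITLG*, *PDGFB*, *FLT3LG* and *PDGFA*) were below -1, with *PDGFA* just inside at -1.03 and *CSF1* just outside at -0.70. All shPAX2 libraries lay below all shEV libraries in 39.0% of the genes tested. Since the genes were chosen with this contrast known, nothing is read from their share.

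Genes with a known place around these receptors were then tested in lists drawn up by role. The lists were chosen with earlier results of these data known, so their shares beside all genes are given as a description. The first held 12 relatives, of which 11 had a row and 7 were tested. *FLT1*, the VEGF receptor gene that neighbours *FLT3*, rose in shPAX2, at 4.99, 2.69 and 2.68 TPM in shEV and 22.3, 45.9 and 50.1 TPM in shPAX2. The groups were far apart, with replicate 1 the lowest of the shPAX2 group. The shPAX2 mean was 11.4-fold higher (log2 difference 3.30, SE 0.42, limma adjusted p 0.00399). It was the only call among the 7 tested relatives, 14.3% of them against 4.54% of all genes. Their median log2 difference was -0.31, against -0.10 for all genes.

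The other relatives split in direction. With no fold threshold, *PGF*, a ligand of FLT1, was higher (log2 difference 0.63, SE 0.18, limma adjusted p 0.0229). *VEGFB*, another FLT1 ligand, was lower (-0.50, SE 0.09, limma adjusted p 0.00269), as was *PDGFRL*, a receptor-like gene with no kinase domain (-0.35, SE 0.07, limma adjusted p 0.00474). That rule was met by 4 of the 7 and by 42.8% of all genes. *FLT4*, the VEGFC receptor gene, was at 6.52 to 6.82 TPM in shEV and 6.81 to 8.17 TPM in shPAX2 (log2 difference 0.19, limma adjusted p 0.137). *VEGFA* varied most inside a group, at 32.6, 51.6 and 121 TPM in shEV (log2 difference -0.69, limma adjusted p 0.344). It lies on chromosome 6, where the median log2 difference of 626 tested genes was 0.39. *CSF1R*, the receptor of CSF1, had 1 read in 1 library, and *PDGFD*, *IL34* and *VEGFC* had at most 3 reads in any library. *KDR* had no row.

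Signal transducers fell in 2 cases. The list held 45 adaptors, kinases and lipid enzymes, of which 44 had a row and 39 were tested. *LYN*, a SRC family kinase recruited by KIT, fell from 17.4, 17.5 and 16.6 TPM to 2.17, 3.32 and 3.35 TPM (log2 difference -2.38, SE 0.14, limma adjusted p 5.55e-06). *GRB10*, an adaptor that binds activated receptors, fell from 12.7, 12.1 and 12.9 TPM to 2.98, 3.09 and 2.97 TPM (log2 difference -1.90, SE 0.08, limma adjusted p 8.31e-07). The groups were wide apart for both. The 2 calls were 5.13% of the genes tested, near the 4.54% of all genes, and the median log2 difference was -0.17.

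The other SRC family kinases were lower by less than 2-fold. *FYN* differed by -0.68 (SE 0.10, limma adjusted p 0.000894), *SRC* by -0.34 (SE 0.09, limma adjusted p 0.0157) and *YES1* by -0.30 (SE 0.06, limma adjusted p 0.00443). *FYN* lies on chromosome 6. With no fold threshold, 18 of the 39 genes passed, 17 lower and 1 (*HRAS*) higher, against 30.5% lower and 12.2% higher over all genes. *SHC1*, an adaptor, and *MAP2K2*, a kinase upstream of ERK, had the highest mean levels and did not pass (log2 differences -0.09 and -0.04, limma adjusted p 0.338 and 0.721). *MAP2K2* was at 138 to 159 TPM in shEV and 138 to 155 TPM in shPAX2.

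**Figure D2:**
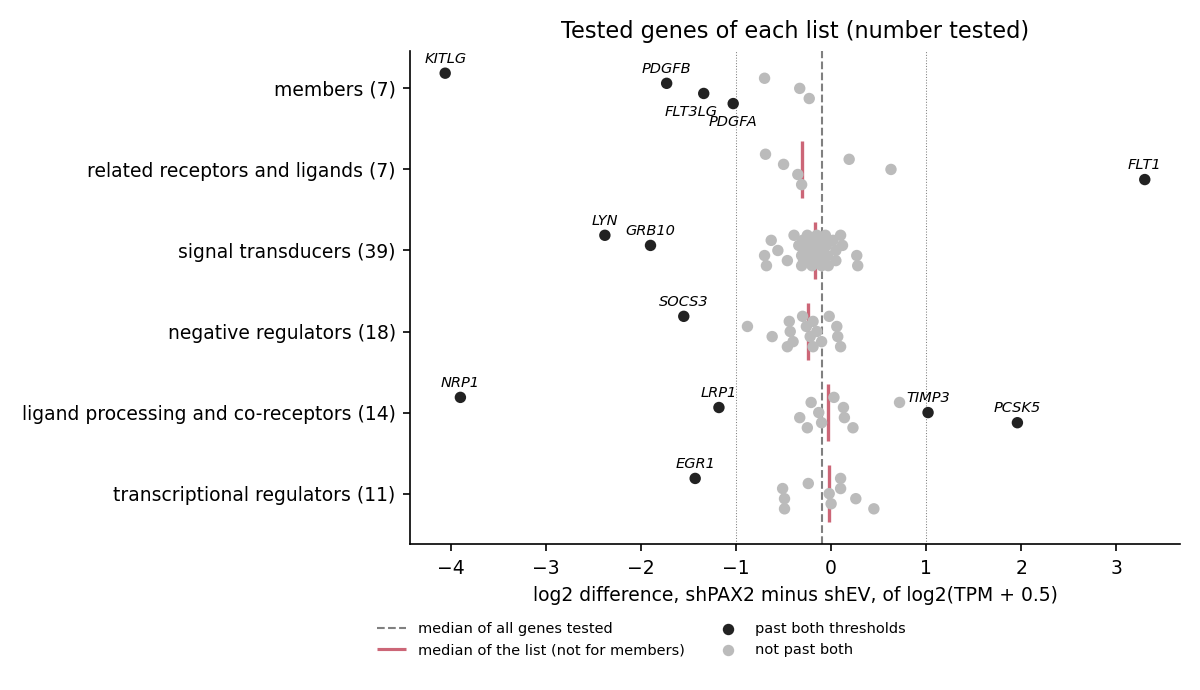
Log2 difference (shPAX2 minus shEV, log2(TPM + 0.5) scale) of each tested gene, by list, with called genes in black and named, list medians in red and the median of all genes tested dashed. The described genes (top) were chosen with this contrast known and have no median drawn; in the other lists the calls are *FLT1* at 3.30, *LYN* at -2.38, *GRB10* at -1.90, *SOCS3* at -1.55, *NRP1* at -3.90, *LRP1* at -1.18, *TIMP3* at 1.02, *PCSK5* at 1.96 and *EGR1* at -1.43.

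Genes that restrain these receptors were lower where they moved. Of 25 listed, 24 had a row and 18 were tested. *SOCS3*, an inducible inhibitor of JAK and receptor signalling, fell from 7.49, 6.46 and 5.22 TPM to 1.55, 2.25 and 1.72 TPM (log2 difference -1.55, SE 0.16, limma adjusted p 0.000118). It was the 1 call, 5.56% of the list against 4.54% of all genes. With no fold threshold 11 passed, all lower, against 30.5% lower over all genes, and the median log2 difference was -0.24. *CBLB*, a ubiquitin ligase that sends active receptors for degradation, stood just under the fold threshold at -0.88 (SE 0.09, limma adjusted p 9.78e-05), while its relative *CBL* differed by -0.19 (SE 0.06, limma adjusted p 0.0365). *RASA1*, a RAS GTPase activator that binds PDGFRB, was lower by -0.44 (SE 0.06, limma adjusted p 0.000582). *ACP1* and *PTPN1*, phosphatases and the most abundant of the list, did not pass (0.07 and -0.02, limma adjusted p 0.321 and 0.861).

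Proteases, inhibitors and co-receptors of the ligands changed in both directions. Of 20 listed, 17 had a row and 14 were tested, and 4 were called, 28.6% against 4.54% of all genes, with 2 higher and 2 lower. One of the lower genes, *NRP1*, passed the filter through shEV alone and so had to differ. Leaving out such genes, a choice made after seeing the data, 3 of 13 were called in the list, 23.1%, against 3.32% of all genes. *NRP1*, a co-receptor of VEGF and PDGF ligands, measured 7.02, 7.06 and 8.86 TPM in shEV and 0.0221, 0.0376 and 0.0693 TPM in shPAX2. That was 1065 reads in shEV against 9 in shPAX2, a ratio of 196 allowing for depth, with an exact 95% counting interval of 103 to 430, and a log2 difference of -3.90 (SE 0.15), given as a description. *LRP1*, a scavenger receptor that associates with PDGFRB, fell from 15.7, 16.1 and 15.0 TPM to 7.20, 6.30 and 6.38 TPM (log2 difference -1.18, SE 0.08, limma adjusted p 1.30e-05), and by -0.99 under quantile normalization.

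*PCSK5*, a proprotein convertase, rose from 4.13, 3.36 and 3.33 TPM to 15.25, 14.98 and 16.04 TPM (log2 difference 1.96, SE 0.10, limma adjusted p 1.87e-06). *TIMP3*, the inhibitor of ADAM17, rose from 4.55, 3.61 and 4.44 TPM to 5.70, 11.5 and 11.1 TPM (log2 difference 1.02, SE 0.27, limma adjusted p 0.0249). Its call was lost with a pseudocount of 1 (log2 difference 0.96), with voom (limma adjusted p 0.0798), and in each fit that left out a shEV library (limma adjusted p 0.0654 to 0.0789) or shPAX2 replicate 2 or 3 (limma adjusted p 0.0593 and 0.0727). *ADAM17*, which sheds stem cell factor and CSF1 from the membrane, was at 35.02 to 40.6 TPM in shEV and 27.2 to 31.03 TPM in shPAX2 (log2 difference -0.33, SE 0.08, limma adjusted p 0.00902). *ADAM9*, a related protease, was higher by 0.72 (SE 0.09, limma adjusted p 0.000352). *ADAM10*, which with *ADAM9* had the highest mean level of the list, did not pass (-0.13, limma adjusted p 0.101), nor did *PLAT*, the plasminogen activator that processes PDGFC (-0.10, limma adjusted p 0.387).

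Of 17 transcription factors tied to these genes in other systems, 16 had a row and 11 were tested. *EGR1*, an immediate early factor known to act on the *PDGFA* and *PDGFB* promoters, fell from 36.6, 34.5 and 41.7 TPM to 12.8, 13.98 and 14.1 TPM (log2 difference -1.43, SE 0.08, limma adjusted p 5.05e-06). It was the 1 call, 9.09% of the list against 4.54% of all genes. *MITF* and *ETV1*, which act with KIT in melanocytes and interstitial cells, were lower by -0.49 (SE 0.10, limma adjusted p 0.00546) and -0.51 (SE 0.11, limma adjusted p 0.00774). *TFAP2A*, on chromosome 6, was higher by 0.45 (SE 0.06, limma adjusted p 0.000734). *HIF1A* had the highest level of the list, 373 to 427 TPM in shEV and 322 to 348 TPM in shPAX2 (-0.24, SE 0.07, limma adjusted p 0.0186). *GATA2*, a blood progenitor and uterine factor, came next and was higher by 0.26 (SE 0.08, limma adjusted p 0.0238). The list medians were -0.02 here and -0.03 for the proteases and co-receptors. *SP1*, whose letters the GC box represents, was at 40.2 to 41.6 TPM in shEV and 39.97 to 41.96 TPM in shPAX2 (0.00 within rounding, limma adjusted p 0.999).

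The genes whose pattern over the 6 libraries was most like that of *KITLG* were *GRIP1*, *NRP1*, *CPE*, *CAMK4* and *TNIK*. Likeness was the root mean square difference of the log2(TPM + 0.5) values, each gene centred on its own mean, over 12475 genes whose mean TPM reached 1. It was 0.133, 0.139, 0.139, 0.211 and 0.226 for these 5, against a median of 1.99 for all genes. After centring, a gene with little difference between the groups lies about that far from *KITLG*. The median therefore reflects the size of the *KITLG* difference and does not measure how unusual the likeness is. The added 0.5 shapes this likeness where shPAX2 levels are low. *NRP1* and *CPE* both stood at 0.139, yet their mean TPM was 177.8-fold and 17.84-fold lower in shPAX2, against 37.15-fold for *KITLG*. They were picked for their values, so no test is given. *GRIP1*, a scaffold with PDZ domains also on chromosome 12, was at 9.03 to 10.8 TPM in shEV and at a mean of 0.226 ± 0.0729 TPM in shPAX2 (SD, n = 3). *CPE*, a carboxypeptidase of secretory granules, kept the highest level in shPAX2 of the 5, at 1.98 ± 0.283 TPM (SD, n = 3) against a shEV mean of 35.3 ± 2.29 TPM (SD, n = 3).

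**Figure D3:**
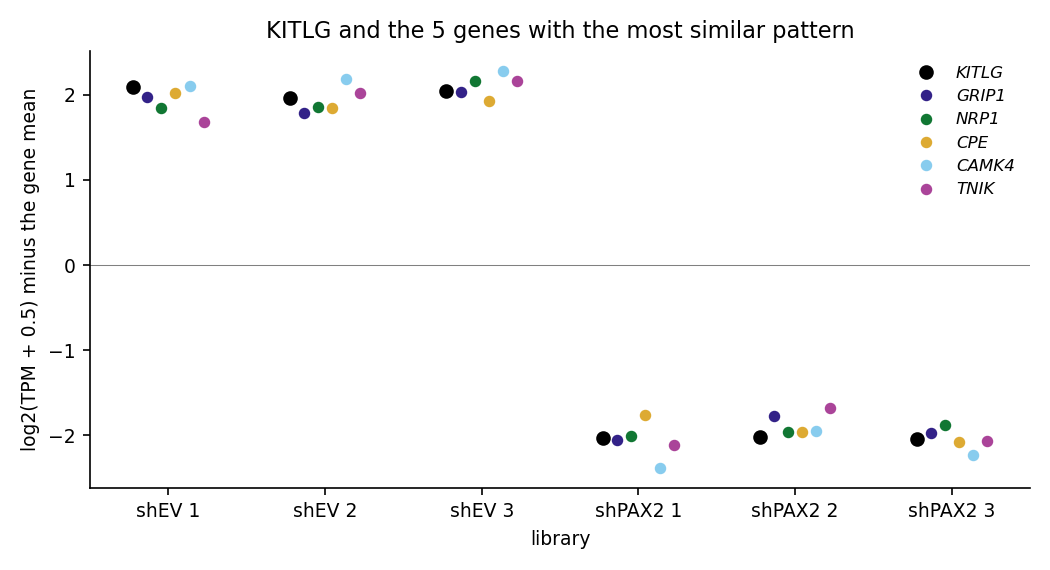
Values of *KITLG* (black) and of the 5 genes most like it, as log2(TPM + 0.5) minus the mean of the gene over the 6 libraries, 1 point per gene and library. All 6 genes lie near 2 in shEV and near -2 in shPAX2. On this scale *GRIP1* follows *KITLG* most closely, with a root mean square difference of 0.133.

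Few genes next to the 10 loci were called. Within 1 Mb of a start site there were 228 listed genes, of which 181 were tested, and 6 of these were called, 3.31% against 4.54% of all genes. Their median log2 difference was -0.08. Around *KITLG* all 7 neighbours were tested and none was called, with log2 differences from -0.44 to 0.55. The lowest was *DUSP6*, an ERK phosphatase gene, at 616 to 629 TPM in shEV and 453 to 469 TPM in shPAX2 (limma adjusted p 0.000269). The highest was *GALNT4*, which overlaps *POC1B* and a listed read-through gene, so the reads of these 3 cannot be told apart. With no fold threshold in limma, 4 of the 7 passed (*DUSP6*, *POC1B*, *GALNT4* and the read-through), against 42.8% of all genes, and the last 3 of these share reads.

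The called neighbours were *FLT1* beside *FLT3*, *FTL* (ferritin light chain) beside *FLT3LG*, *GPR146* beside *PDGFA*, *AFAP1L1* and *ARHGEF37* beside *PDGFRB*, and *MIR197* beside *CSF1*. *FTL* fell from 1657 ± 125 to 809 ± 23.3 TPM (SD, n = 3 each; log2 difference -1.03, SE 0.07, limma adjusted p 9.64e-06). It was short of the fold threshold under median-of-ratios scaling (-0.92) and without shEV replicate 1 (-0.97). *AFAP1L1* fell by 1.48 (SE 0.17, limma adjusted p 0.000549) and *ARHGEF37* by 1.32 (SE 0.20, limma adjusted p 0.00179) on the log2 scale. *GPR146* varied most, at 1.70, 2.83 and 4.73 TPM in shEV (log2 difference -1.29, SE 0.32, limma adjusted p 0.0161). With the replicate number as a block its adjusted p in limma was 0.0622, and it was also not called without shEV replicate 3 (log2 difference -0.98) or shPAX2 replicate 2 or 3 (limma adjusted p 0.0598 and 0.0608). *MIR197* had at most 3 reads in any library.

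**Figure D4:**
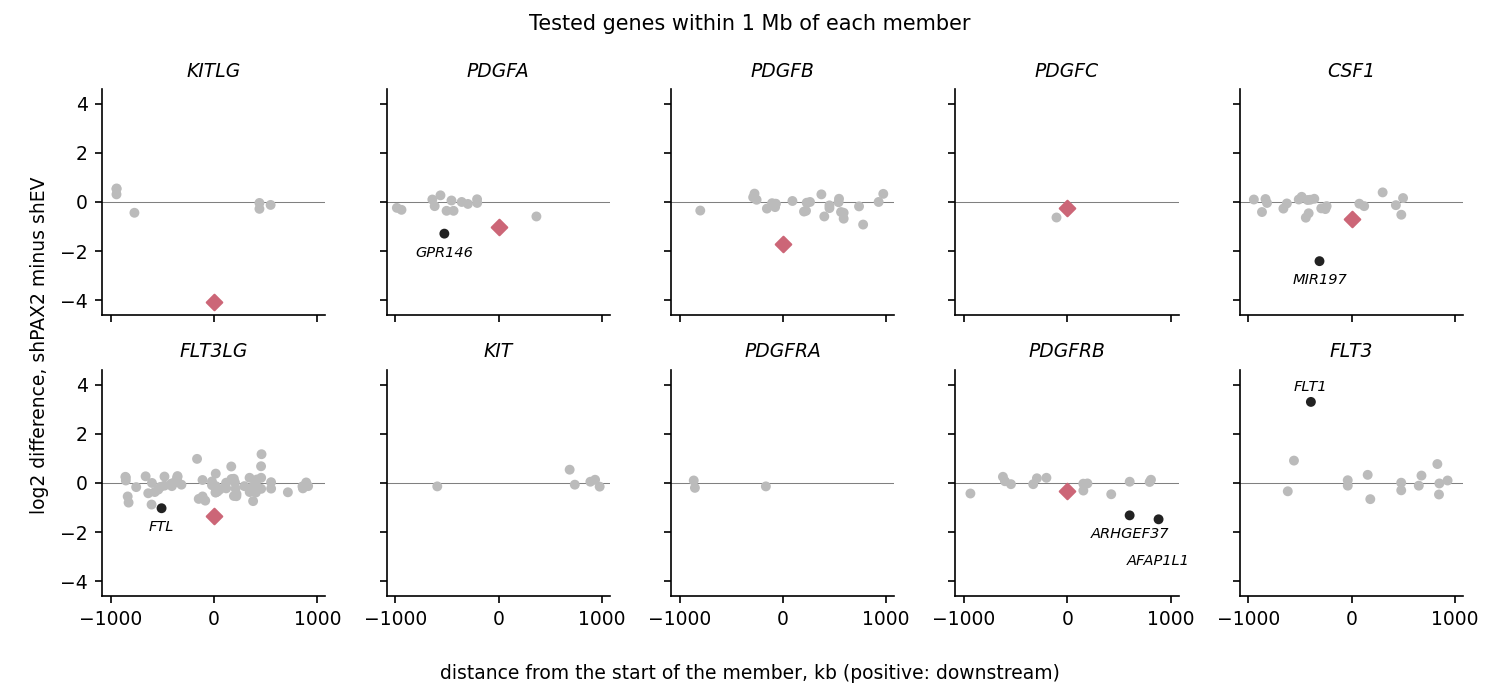
Log2 difference (shPAX2 minus shEV) of each tested gene within 1 Mb of a member, against the distance from the start of that member in kb, with called neighbours in black and named, and the member itself as a red diamond where it was tested. The 7 genes around *KITLG* lie between -0.44 and 0.55 while *KITLG* is at -4.06, and *FLT1*, beside *FLT3*, is the highest point at 3.30.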

How the data were processed

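RNA-seq of 6 AN3CA libraries was used, 3 shEV and 3 shPAX2, grouped and numbered by their labels. The authors deposited TPM values per gene symbol. The submitters' processing notes name STAR, Subread, featureCounts, edgeR and hg19, with no versions or roles. The study's methods, written for another line, name RSEM, so the counter behind these values and its strand setting are not given in the sources used here. Because TPM values sum to a fixed total, abundant genes that differ shift the rest.

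Within each gene, TPM ratios between libraries were ratios of whole numbers (100.0% of genes, largest relative deviation 4.93e-14), which gave whole reads up to a factor common to a gene. In simulated reads 94.3% of 1937 genes were returned exactly. Genes at 0.5 TPM or more in at least 3 libraries were tested with limma 3.58.1 in R 4.3.3 (trend and robust) on log2(TPM + 0.5), two-sided and without covariates. P-values were adjusted by Benjamini-Hochberg across 13163 genes. Calls needed an adjusted p under 0.05 together with a log2 difference of 1 or more in size. On simulated reads with 200 changed genes, 94.9% of the 195 tested were recovered, with 4 false calls among 13126 genes. Ratios of low reads have exact binomial intervals (scipy 1.17.1), which cover counting error only. Of 17471 symbols, 93.7% were placed in GENCODE release 44 on GRCh37, the build of hg19. Promoters came from RefSeq on GRCh38.p14.

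The members and gene lists were chosen with earlier results of these data known. Named genes were the 10 members, *PAX2*, in each list the called genes (at most 4 a direction) and the 2 highest by mean TPM, the called neighbours and the 5 genes most like *KITLG*; others named by value were chosen after the values were seen. Other pseudocounts, filters, scalings, moderation, voom, the replicate block and fits without each library were run as alternatives.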

Additional observations from a re-analysis of the deposited data

How the results depend on the processing

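*KITLG* lay between -5.16 and -3.47 and *PDGFB* between -5.61 and -1.12 over the alternatives that could give a value, and the tested members were below 0 in each of theirs. As a description with no test, since the members were chosen on this contrast, the count of members past both thresholds was 4. Across the fits without one library it was 1 to 4. Over all genes tested, 4.54% were past both thresholds. *KITLG* and *PDGFB* passed the filter only through shEV, so they had to differ. Without a shEV library, *KITLG* and *PDGFB* no longer reached the filter of 3 libraries, and with a filter of 2 libraries, chosen after seeing the data, the count was 3 to 4. *PDGFA*, nearest to the fold threshold, fell short of it under median-of-ratios scaling (-0.92), quantile normalization (-0.84), a pseudocount of 1 (-0.98), and without shEV replicate 3 (-0.98), shPAX2 replicate 2 (-0.96) or shPAX2 replicate 3 (-0.98). The list of proteases and co-receptors gave 2 to 4 calls across the fits without one library. With no fold threshold the calls were 4 in the relatives, 18 in the transducers, 11 in the negative regulators, 7 in the proteases and co-receptors, 6 in the transcription factors and 76 among the neighbours (1, 2, 1, 4, 1 and 6 with it). That rule was met by 42.8% of all genes (5629) and by 42.0% of the tested neighbours. A filter at 5 TPM gave 303 calls among 10633 genes tested, in place of 598 among 13163. The replicate numbers did not pair the libraries (correlations of deviations -0.0523, 0.0815 and 0.00140). Blocking on the replicate number, 4 members and 588 of the 13163 genes tested were past both thresholds, and *GPR146* lost its call. Apart from members that no longer reached the filter, the cause of the changes was not tested. Depth limits *KIT*, *FLT3*, *PDGFRA* and the shPAX2 level of *PDGFB*, which rest on few reads.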

Other observations

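Several genes of the lists lay under the filter and were not tested. The following were chosen after their values were seen. *LMO2*, a partner of TAL1 in blood progenitors, had 16 reads over the shEV libraries against 6 over the shPAX2 libraries, a ratio of 4.42 allowing for depth (exact 95% counting interval 1.64 to 13.8). *PTPN6*, the phosphatase that dampens KIT in blood cells, had 12 reads in shEV against 6 in shPAX2, a ratio of 3.32 (1.15 to 10.8). *ADAM19*, a membrane protease, had 10 reads against 1, a ratio of 16.6 (2.36 to 720). *GRB7*, an adaptor related to *GRB10*, had 9 reads against 1, a ratio of 14.9 (2.07 to 654). These intervals cover counting error only, and each rests on few reads. Among the fibroblast markers, *COL3A1* rose from 35.1 ± 8.25 to 242 ± 6.14 TPM (SD, n = 3 each, limma adjusted p 0.000122) while *COL1A2* fell from 836 ± 24.3 to 390 ± 43.1 TPM (SD, n = 3 each, limma adjusted p 1.75e-05). *COL1A1*, the other collagen gene of that list, was at 1.02 ± 0.407 and 0.888 ± 0.143 TPM (SD, n = 3 each), with overlapping groups (limma adjusted p 0.717).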
